A study of Mus musculus with 18 samples.

Results

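The clustered protocadherins are cell surface proteins of the cadherin superfamily whose genes lie side by side in an alpha, a beta and a gamma cluster on mouse chromosome 18. The genes described here are the protein-coding rows of the deposited annotation whose symbols begin with Pcdha, Pcdhb or Pcdhg. There were 24 of them among 26601 annotated rows, of which 18538 were protein-coding. The 24 rows comprised 2 alpha, 21 beta and 1 gamma row. They were picked by name, with earlier results of these data known.

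Clustered protocadherins form dimers and larger assemblies through their extracellular cadherin repeats, and matching combinations on neighbouring membranes bind each other. Single neurons switch on different combinations of the genes, which is known to give each neuron a surface identity used in the self-avoidance and spacing of its neurites. Alpha and gamma transcripts each join 1 variable first exon to constant exons shared by the whole cluster, whereas a beta gene is a single coding exon with no constant part.

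The study profiled poly-A RNA from the lateral cortex of C57BL/6 mouse embryos at embryonic day 14.5. Cells were sorted by fluorescence into proliferating progenitors that were negative for the Btg2 reporter (PP), differentiating progenitors that were positive for it (DP), and neurons carrying the Tubb3 reporter (Neuron). Btg2 is a gene switched on in progenitors that go on to make neurons, and Tubb3 encodes a neuronal tubulin. There were 3 libraries per fraction, and each library was sequenced in a single-read and a paired-end run whose counts were added here. All 3 fractions came from embryos with the same double reporter, which the genotype field writes as Btg2GFP/Tubb3GFP while the sample titles write RFP for the progenitor sort. Each library pooled sorted cells of more than 3 embryos from different litters, so the spread between libraries is a spread between pools. Meninges and ganglionic eminences were removed before dissociation.

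Library totals ran between 34337209 reads (a PP library) and 55935128 reads (a Neuron library), and 18627 features passed the filter on low counts. Levels below are CPM, that is reads per 1000000 of a library's total after scaling by edgeR's trimmed mean of M values. The 8 radial glia markers, among them Pax6 and Hes5, summed to 5403 to 6319 CPM in PP, 2494 to 3625 CPM in DP and 298 to 380.1 CPM in Neuron libraries. The 4 intermediate progenitor markers, Eomes among them, summed to 1166 to 1195 CPM in PP, 2489 to 3548 CPM in DP and 468 to 522 CPM in Neuron libraries. Summed CPM of the 5 matched neuron markers, Dcx among them, was 109 to 263 in PP, 1535 to 2159 in DP and 6464 to 6998 in Neuron libraries. Red blood cell markers summed to 186 to 460.3 CPM in PP, 1.45 to 6.24 CPM in DP and 0.589 to 2.21 CPM in Neuron libraries. Summed markers of Cajal-Retzius cells (4.05 to 7.41 CPM in PP, 53.1 to 60.3 CPM in DP, 799 to 914 CPM in Neuron) and of interneurons (4.13 to 49.4, 26.9 to 149 and 367 to 389 CPM in the same order) were also highest in Neuron libraries. Most of the Cajal-Retzius sum in Neuron was Reln (mean 812.5 CPM). Of the same 4 markers, Ebf2 was lower in Neuron (mean 3.435 CPM) than in DP (8.883 CPM), while Reln, Trp73 and Lhx5 were higher. The neuron, Cajal-Retzius and interneuron sums were highest in Neuron, as were the protocadherin levels below. Radial glia and red blood cell sums were highest in PP, and the intermediate progenitor sum in DP. The part of these cell types in the results below was not tested. In sorted bulk samples, fewer cells of a type and less RNA per cell cannot be told apart.

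The annotation decides what each row can show. The row named Pcdha4 (ENSMUSG00000007440) ran over mm9 chr18:37089939-37347311 on the plus strand, a span of 257373 bases, and joined 13 exon segments, of which 10 were longer than 2000 bases. It therefore held the variable exons of most alpha genes together with the shared constant exons, and its reads are those of the alpha cluster rather than of the Pcdha4 isoform. Pcdha3 (ENSMUSG00000091969) was the only other alpha row and covered chr18:37105801-37108685. The row named Pcdhga9 (ENSMUSG00000023036) covered chr18:37833989-38001527 with 11 segments, 9 of them longer than 2000 bases. It likewise joined many exons of its cluster and is called the gamma cluster row below. No rows carried the names of the C-type genes Pcdhac1, Pcdhac2, Pcdhgc3, Pcdhgc4 or Pcdhgc5, so their values are not given. For comparison, RefSeq lists 14 alpha, 22 beta and 22 gamma genes on assembly GRCm38.p6. The 9 long segments of the Pcdhga9 row are far fewer than the 22 gamma genes. That row may therefore lack the variable exons of many gamma genes, and its values need not be those of the whole cluster. The beta genes were the only ones resolved singly: they lay between chr18:37424652 and chr18:37681073, and 20 of the 21 rows held 1 exon segment. Beta genes are close in sequence, and the sources used here do not say how reads matching several of them were counted, so values of single beta genes carry that uncertainty.

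Beta protocadherin transcripts were higher in DP than in PP across the cluster. Of the 21 beta genes, 20 passed the filter on low counts, and 20 were higher in DP and 0 were lower at an adjusted p at or under 0.05 in edgeR's quasi-likelihood test, where 21.3% of all features tested were higher and 20.2% were lower. No tested beta gene had an estimate below 0 in this step, and DESeq2's Wald test called 0 lower. Pcdhb1, the remaining gene, had 3 reads over all 9 libraries and was not tested. Fold changes ran between 1.90-fold (Pcdhb8) and 6.89-fold (Pcdhb12), and 18 beta genes were at least 2-fold higher, a size reached upward by 7.54% of all features. Every DP library stood above every PP library for 20 beta genes, against 25.1% of all features. With no filter on low counts, the median log2 fold change over all 21 beta genes was 1.402, against -0.01 over 27231 features, and 20 were again called higher. Pcdhb10, Pcdhb12 and Pcdhb13 were below the filter's minimum of 0.232 CPM in every PP library and Pcdhb9 was below it in 2 of 3, so these genes entered the test through their DP and Neuron levels.

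Beta transcripts were also higher in Neuron than in DP libraries. In this second step, 20 beta genes were higher and 0 were lower by the same edgeR test, where 33.1% of all features were higher and 34.2% were lower. Fold changes ran between 1.68-fold (Pcdhb6) and 5.55-fold (Pcdhb9), and 18 beta genes were at least 2-fold higher, against 15.6% of all features. Every Neuron library stood above every DP library for 20 beta genes, against 35.5% of all features. The median log2 fold change over all 21 beta genes without the filter was 1.53, against 0 over all features. Both steps use the same DP libraries, so the values of one are not independent of the other. Between the ends of the series, Neuron against PP, 20 beta genes were higher and 0 were lower, where 36.7% of all features were higher and 38.6% lower, by 3.38-fold (Pcdhb8) to 28.2-fold (Pcdhb12).

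Summed over the 21 beta genes, the level was 16.83, 17.26 and 16.15 CPM in the PP libraries, 43.25, 48.43 and 45.8 CPM in the DP libraries, and 128.1, 129.3 and 123.7 CPM in the Neuron libraries. The 3 fractions did not overlap, and libraries of 1 fraction lay close together. The means were 16.8 ± 0.559, 45.8 ± 2.59 and 127 ± 2.92 CPM in PP, DP and Neuron (SD, n = 3 each). DP was 2.74-fold above PP and Neuron was 2.77-fold above DP on these sums. These sums rest on 627 to 808 reads per PP library, 1837 to 2500 reads per DP library and 4804 to 6361 reads per Neuron library. One library of each fraction carried single-read run numbers apart from those of the other 6 libraries. Within those 3 libraries the beta sum was 2.57-fold above PP in DP libraries and 2.96-fold above DP in Neuron libraries, and within the other 6 libraries the ratios were 2.82 and 2.68.

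**Figure D1:**
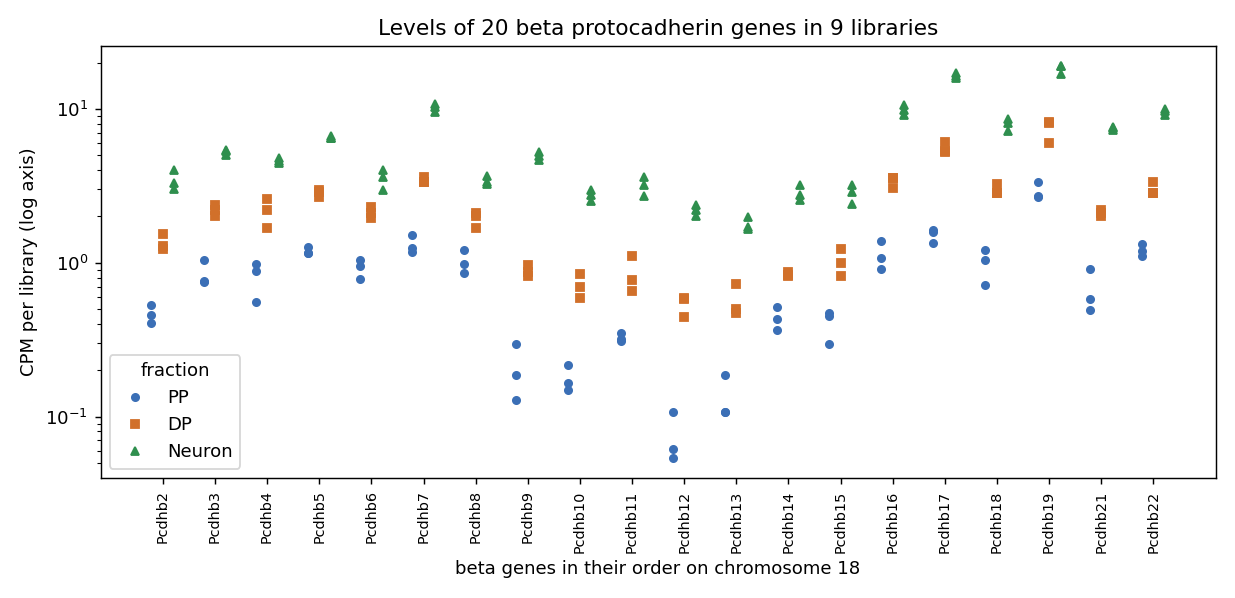
CPM (log axis) of the 20 tested beta genes, in chromosomal order, in each of 9 libraries: circles for PP, squares for DP and triangles for Neuron, 3 libraries per fraction. For each of the 20 genes the DP libraries lie above the PP libraries and the Neuron libraries above the DP libraries, and the genes differ among themselves by more than 10-fold within PP.

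Pcdhb19, Pcdhb17 and Pcdhb7 had the highest mean CPM of the beta genes. Pcdhb19 (chr18:37656651-37663781) had 2.69, 3.35 and 2.71 CPM in PP, 6.00, 8.12 and 8.18 CPM in DP, and 16.8, 18.9 and 19.1 CPM in Neuron libraries. Its 3 fractions were separate, with 2.54-fold more in DP than in PP (adjusted p = 2.77e-05) and 2.46-fold more in Neuron than in DP (adjusted p = 5.03e-06) in the edgeR test. Pcdhb19 also has the longest counted row of the beta genes, 7131 bases, so its CPM and its level per kilobase rank differently. Pcdhb17 (chr18:37644675-37647943) had 1.34, 1.62 and 1.58 CPM in PP, 5.25, 6.10 and 5.31 CPM in DP, and 16.3, 17.0 and 15.9 CPM in Neuron libraries. None of its fractions overlapped, and the log2 fold changes were 1.87 ± 0.13 in the first step (SE, edgeR adjusted p = 7.83e-07) and 1.56 ± 0.11 in the second (SE, edgeR adjusted p = 1.47e-07). Pcdhb7 had 1.18, 1.52 and 1.25 CPM in PP, 3.58, 3.35 and 3.35 CPM in DP, and 10.3, 10.7 and 9.53 CPM in Neuron libraries. It stood 2.59-fold above PP in DP libraries and 2.97-fold above DP in Neuron libraries (edgeR adjusted p = 1.79e-05 and 5.16e-07).

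Pcdhb12 and Pcdhb9 had the steepest changes and started near the limit of detection. Pcdhb12 had 2, 5 and 3 reads in PP, 25, 23 and 24 reads in DP, and 86, 116 and 86 reads in Neuron libraries. Its level was 6.89-fold above PP in DP libraries (edgeR adjusted p = 5.1e-05) and 4.09-fold above DP in Neuron libraries (edgeR adjusted p = 5.31e-06). With 2 to 5 reads per PP library the first of these folds is imprecise: its 95% interval on the log2 scale ran between 2.04 and 3.53. The log2 fold change of this step, 2.78 with both runs added, was 4.42 with the single-read runs alone and 2.18 with the paired-end runs alone. For Neuron against PP the corresponding values were 4.82, 6.47 and 4.19. Pcdhb9 had 11, 6 and 9 reads in PP, 35, 50 and 36 reads in DP, and 225, 243 and 180 reads in Neuron libraries. Its fractions did not overlap, with 4.46-fold more in DP than in PP (edgeR adjusted p = 7.23e-05) and 5.55-fold more in Neuron than in DP (edgeR adjusted p = 4.38e-07). With the single-read runs alone the first-step log2 fold change was 2.775 for Pcdhb9, against 2.156 with both runs, and 2.765 for Pcdhb10, against 2.01.

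At the other end stood Pcdhb8, Pcdhb14 and Pcdhb6. Pcdhb8 had 1.21, 0.982 and 0.863 CPM in PP, 1.67, 2.09 and 2.00 CPM in DP, and 3.35, 3.66 and 3.27 CPM in Neuron libraries. It was 1.90-fold above PP in DP libraries (edgeR adjusted p = 0.00196) and 1.78-fold above DP in Neuron libraries (edgeR adjusted p = 0.00104), the lowest Neuron against PP change of the 20. Pcdhb14 had 0.824, 0.833 and 0.868 CPM in DP, against 0.430, 0.363 and 0.514 CPM in PP libraries. Its 1.92-fold change had an edgeR adjusted p of 0.00498, which was 0.0851 when the single-read runs were used alone (log2 fold change 0.69). In Neuron libraries Pcdhb14 had 2.74, 3.21 and 2.55 CPM, 3.36-fold above DP. Pcdhb6 rose 2.27-fold in DP over PP and then had the lowest second step, with 3.63, 4.02 and 2.99 CPM in Neuron against 1.95, 2.09 and 2.29 CPM in DP libraries (1.68-fold, edgeR adjusted p = 0.00238).

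The other 12 tested beta genes lay between these extremes. In the first step they ranged between 2.39-fold (Pcdhb5) and 4.11-fold (Pcdhb13), and in the second between 2.13-fold (Pcdhb4) and 3.86-fold (Pcdhb10). Their values in single libraries appear in the plot of beta levels.

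The size of the 2 steps was compared directly, as the log2 fold change of Neuron against DP minus that of DP against PP. This comparison was added after values had been seen, and the DP libraries enter it in both terms. For the beta genes 0 of 20 differences passed the adjusted threshold in edgeR's test, while 20.5% of all features had a larger and 24.9% a smaller second step. Unadjusted p was under 0.05 for 1 beta gene, Pcdhb14 (difference 0.81, 95% interval 0.02 to 1.59, adjusted p = 0.0878). The intervals of the other 19 covered 0 and reached 0.441 to 1.09 to either side of the estimate, so differences of this size between the steps could not be seen for single beta genes. The estimates were below 0 for 13 genes and above 0 for 7. With the single-read runs alone the difference was -2.375 for Pcdhb12 (edgeR adjusted p = 0.0573), against -0.752 with both runs. For Pcdhb10 it was -0.992, against -0.063, and for Pcdhb9 -0.352, against 0.317.

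**Figure D2:**
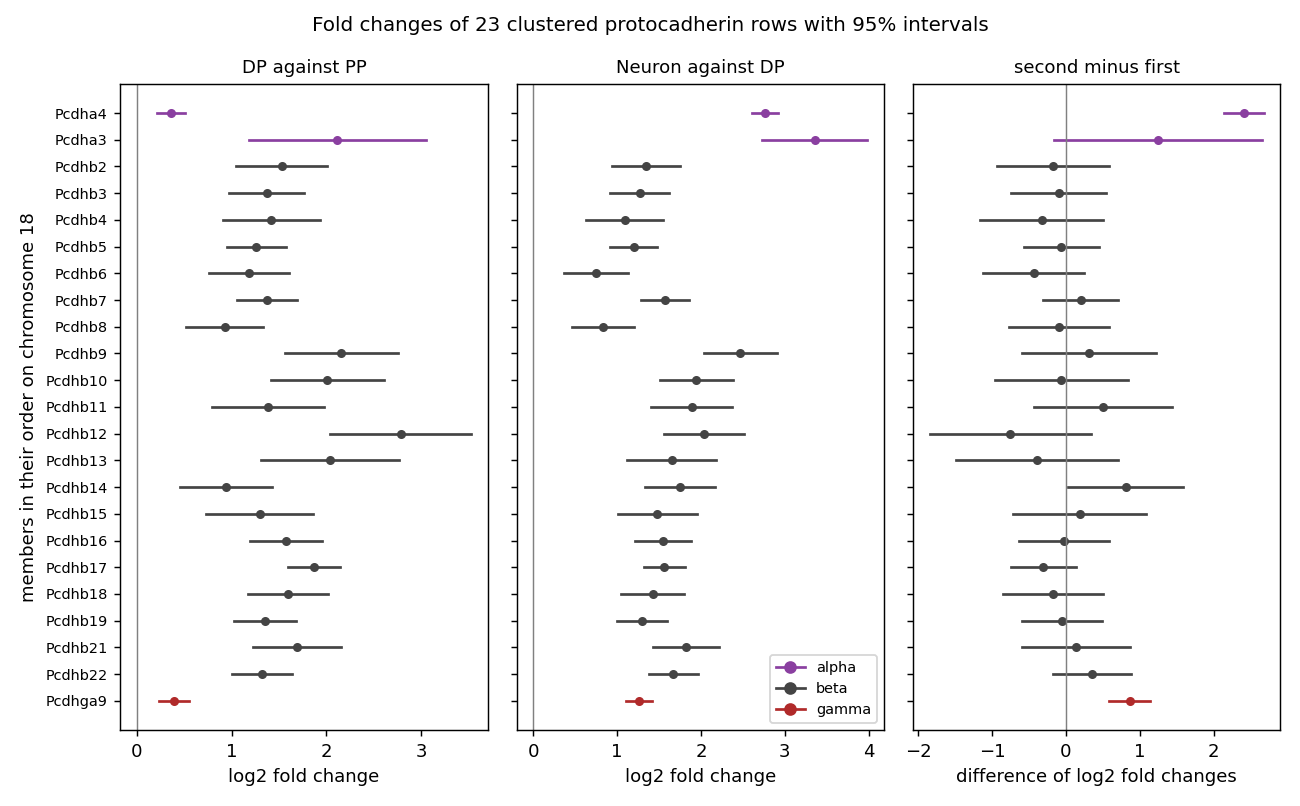
Log2 fold changes (x axes) with 95% intervals for the 23 tested rows, in chromosomal order down the page, for DP against PP (left), Neuron against DP (middle) and the second step minus the first (right), each from 3 libraries per fraction. The alpha and gamma cluster rows Pcdha4 and Pcdhga9 are at 0.36 and 0.40 in the first step, below the 20 beta genes, and have second steps larger by 2.41 and 0.86.

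The make-up of the beta cluster was read per length, as each gene's share of the summed CPM per kilobase of counted row. Pcdhb17 had the highest level per kilobase in each fraction, 0.464 in PP, 1.70 in DP and 5.02 in Neuron. Its share was 10.6 ± 1.16% in PP, 14.2 ± 0.583% in DP and 15.0 ± 0.265% in Neuron (SD, n = 3 each). Pcdhb8 was the second in PP with 9.83 ± 1.53% and had 6.82 ± 0.479% in DP and 4.37 ± 0.192% in Neuron. Its share was thus lower in each later fraction while its level in CPM was higher. Pcdhb9 went the other way, with 1.51 ± 0.619% in PP, 2.42 ± 0.0749% in DP and 4.85 ± 0.207% in Neuron. Shares of 7 beta genes (Pcdhb9, Pcdhb10, Pcdhb11, Pcdhb12, Pcdhb13, Pcdhb17 and Pcdhb21) were higher in every Neuron library than in any PP library, and those of 5 (Pcdhb3, Pcdhb5, Pcdhb6, Pcdhb8 and Pcdhb19) were lower in every Neuron library. The PP shares of Pcdhb9, Pcdhb10, Pcdhb12 and Pcdhb13 rest on 2 to 11 reads per library. Shares add up to a fixed total, so a gain by some genes forces a loss by others. They were not tested. The 5 genes with the highest mean level per kilobase over all 9 libraries were taken as 1 fixed set, not ranked anew in each fraction. Together they held 45.0 ± 2.70% in PP, 45.9 ± 0.670% in DP and 46.3 ± 0.834% in Neuron, values that differed by less than the spread between PP libraries.

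**Figure D3:**
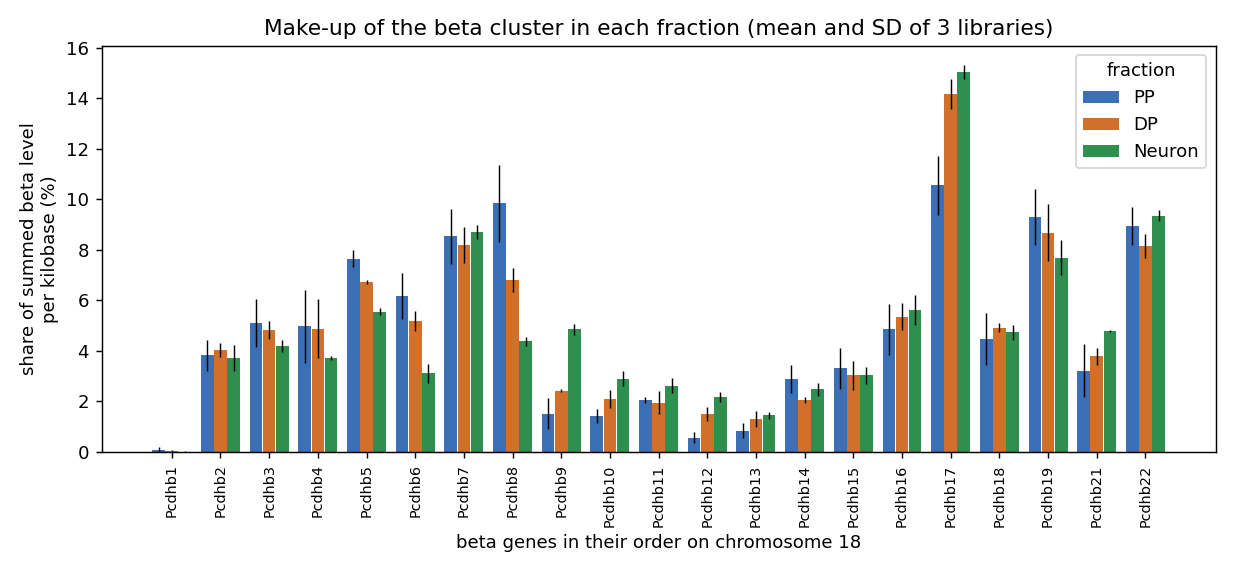
Share (%) of each beta gene in the summed beta level per kilobase, as bars for the mean and lines for the SD of 3 libraries in PP, DP and Neuron, with genes in chromosomal order. Pcdhb17 holds the highest bar in each fraction, Pcdhb8 has its highest share in PP (9.83%) and its lowest in Neuron (4.37%), and Pcdhb9 the reverse (1.51% and 4.85%).

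Across the 21 beta genes, the order of mean levels per kilobase was similar between fractions, with a Spearman rho of 0.96 between DP and PP, 0.89 between Neuron and DP and 0.78 between Neuron and PP. These values describe genes, not replicates, and the genes share libraries and counted lengths. Between chromosomal order and log2 fold change over the 20 tested genes, rho was 0.16 in the first step and 0.39 in the second, and neither was tested. Weak values of this kind over few genes are a description only.

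The alpha cluster row was slightly higher in DP than in PP and much higher in Neuron than in DP. The Pcdha4 row had 18.2, 18.2 and 18.4 CPM in PP, 21.5, 24.1 and 24.8 CPM in DP, and 161.7, 159.8 and 157.7 CPM in Neuron libraries. DP libraries lay just above PP libraries, and Neuron libraries far above both. In the edgeR test the row was 1.28-fold above PP in DP libraries (log2 0.36 ± 0.07 SE, adjusted p = 0.00147) and 6.81-fold above DP in Neuron libraries (log2 2.77 ± 0.07 SE, adjusted p = 6.62e-11). The second step exceeded the first by 2.41 on the log2 scale (95% interval 2.14 to 2.68, edgeR adjusted p = 5.99e-08). Its first-step estimate was below those of the 20 tested beta genes and its second-step estimate above them; no test between genes was run. Within the 3 libraries with run numbers apart, the summed alpha rows were 1.20-fold above PP in DP libraries and 7.61-fold above DP in Neuron libraries, and within the other 6 libraries 1.36-fold and 6.58-fold.

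Pcdha3, an alternate alpha gene with a row of its own, had 7, 1 and 10 reads in PP, 27, 29 and 25 reads in DP, and 277, 327 and 208 reads in Neuron libraries. The fractions did not overlap, and PP was close to the detection limit. Every PP library was below the filter's minimum of 0.232 CPM, so Pcdha3 entered the test through its DP and Neuron levels. Pcdha3 was 4.34-fold above PP in DP libraries (edgeR adjusted p = 0.00187) and 10.2-fold above DP in Neuron libraries (edgeR adjusted p = 7.29e-07). Its 2 steps differed by 1.24 (95% interval -0.16 to 2.65, edgeR adjusted p = 0.146). Without the PP library that held 1 read, the difference was 1.77 (adjusted p = 0.00621), so that library decides the call. The Pcdha3 row lies inside the span of the Pcdha4 row, and the sources used here do not say how reads matching both were assigned.

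**Figure D4:**
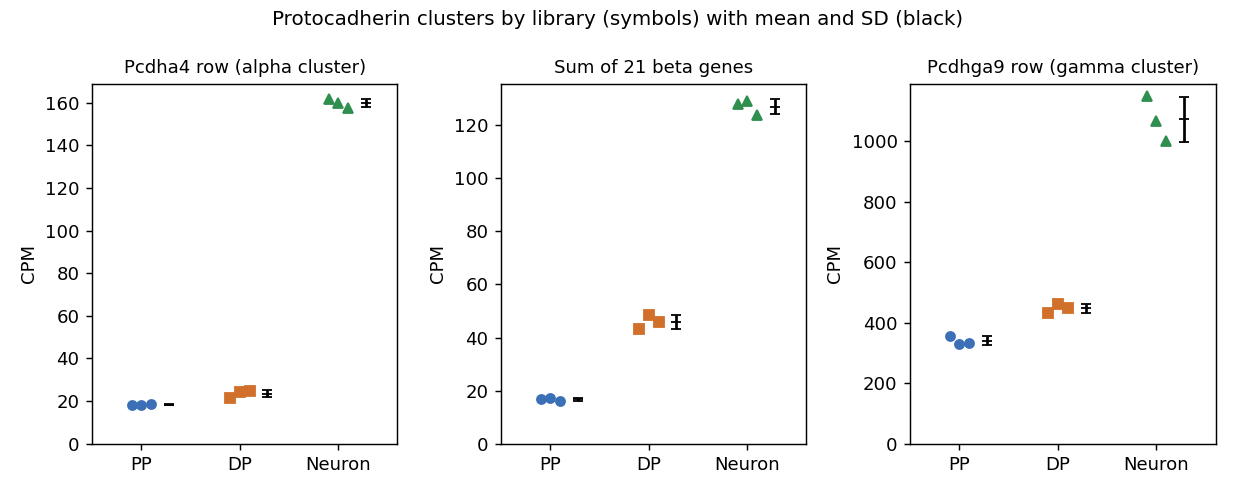
CPM of the Pcdha4 row (alpha cluster), the sum of the 21 beta genes and the Pcdhga9 row (gamma cluster) in each library, with the mean and SD of 3 libraries per fraction in black and each y axis starting at 0. The beta sum is stepwise higher (means 16.8, 45.8 and 127 CPM in PP, DP and Neuron), whereas the alpha row is at 18.3 and 23.5 CPM in PP and DP and at 159.7 CPM in Neuron.

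The gamma cluster row was the member with the highest level per kilobase in each fraction. The Pcdhga9 row had 357.8, 331 and 333 CPM in PP, 433, 463 and 448 CPM in DP, and 1150.0, 1067 and 1002 CPM in Neuron libraries. The fractions did not overlap, but PP libraries already held substantial reads, 13327 to 16187 each. The row was 1.32-fold above PP in DP libraries (log2 0.40 ± 0.07 SE, edgeR adjusted p = 0.00105) and 2.40-fold above DP in Neuron libraries (log2 1.26 ± 0.07 SE, edgeR adjusted p = 2.34e-08). The second step exceeded the first by 0.86 (95% interval 0.59 to 1.14, edgeR adjusted p = 0.000166). Within the 3 libraries with run numbers apart the ratios were 1.21 and 2.66, and within the other 6 they were 1.37 and 2.27. Per kilobase of counted row the gamma row stood at 11.75 CPM in PP, 15.5 CPM in DP and 37.0 CPM in Neuron, and the alpha row at 0.740, 0.9504 and 6.47 CPM. Since both rows join many alternative first exons, their lengths exceed those of any transcript and these levels per kilobase understate the level of the shared constant exons.

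Rows lying among the clusters did not all move with them. Pcdhb20, annotated as a pseudogene in the deposited table and therefore not among the 21, had 1.99, 1.86 and 1.71 CPM in PP, 4.43, 4.65 and 4.82 CPM in DP, and 11.6, 12.1 and 10.7 CPM in Neuron libraries. It was 2.51-fold above PP in DP libraries and 2.47-fold above DP in Neuron libraries (edgeR adjusted p = 8.87e-06 and 9.79e-07), values inside the range of the beta genes. Taf7, a gene between the beta and gamma clusters that encodes a subunit of the general transcription factor TFIID, was lower in DP (20.7 ± 0.190 CPM) than in PP (27.5 ± 2.43 CPM; SD, n = 3 each, edgeR adjusted p = 0.00243). In Neuron libraries Taf7 was at 18.3 ± 0.931 CPM (adjusted p = 0.0888 against DP). Gm10544, a lincRNA row between the alpha and beta clusters, had 0.824, 0.988 and 0.989 CPM in DP against 0.456, 0.278 and 0.226 CPM in PP libraries (2.97-fold, edgeR adjusted p = 0.00141), inside the range of the beta genes. Its Neuron libraries, at 1.33, 1.08 and 1.67 CPM, lay above its DP libraries, but the 1.45-fold difference did not pass the threshold (edgeR adjusted p = 0.0832). Slc25a2, a mitochondrial ornithine carrier gene, and 3222401L13Rik passed the threshold in neither step. Gm10545, on the minus strand, shares 2790 bases with segments of the Pcdha4 row; it had 1.94 ± 0.0735 CPM in Neuron and 0.507 ± 0.113 CPM in DP (3.83-fold, edgeR adjusted p = 9.32e-05). The lincRNA Gm16882, also on the minus strand, shares 1647 bases with the Pcdhga9 row and was called in neither step, with means of 8.76, 8.69 and 10.1 CPM in PP, DP and Neuron. The sources used here do not say whether counting used strand, and without strand the reads of such overlapping pairs cannot be told apart.

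The authors' deposited table of comparisons was set beside these values. In the authors' deposited table, of 20 beta genes with an adjusted p, 20 were higher in DP than in PP, with log2 fold changes of 0.93 to 2.67, and 20 were higher in Neuron than in DP, with 0.78 to 2.49. For the Pcdha4 row the authors' deposited table gave 0.36 and 2.79, and for the Pcdhga9 row 0.40 and 1.29. It drew on the same libraries and is not independent of the values above.

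Genes known for the choice of clustered protocadherin promoters and the folding of the clusters were mostly lower in Neuron than in DP libraries. Of 18 such genes, 3 were higher and 2 were lower in DP than in PP (median log2 fold change 0.10, against -0.02 over all features tested, of which 21.3% were higher and 20.2% lower). In Neuron against DP 1 was higher and 14 were lower (median -0.48, against -0.04 over all features tested, of which 33.1% were higher and 34.2% lower). Rad21, a cohesin subunit, averaged 146.1 CPM in Neuron and 329 CPM in DP (2.25-fold lower, edgeR adjusted p = 7.35e-07). Ctcf, whose protein binds protocadherin promoters and enhancers, passed the threshold in neither step, with 180.5, 203 and 186 CPM in PP, DP and Neuron. Dnmt3a, a de novo DNA methyltransferase, was lower in both steps, at 389, 234 and 115 CPM in PP, DP and Neuron (edgeR adjusted p = 3.54e-05 and 5.23e-07). Rest, a repressor of neuronal genes, was likewise lower in both, at 135.5, 74.6 and 43.6 CPM (edgeR adjusted p = 0.000273 and 0.000237). Nipbl, the cohesin loader, was 1.26-fold above PP in DP libraries, and its call as lower in Neuron against DP (log2 -0.28, adjusted p = 0.0174) was lost when the second DP library (adjusted p = 0.0581) or the third Neuron library (0.0796) was left out.

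Among partners that carry protocadherin signals to kinases and to actin, 17 of 18 genes were found in the table. In DP against PP 5 were higher and 2 were lower (median log2 -0.04, against -0.02 over all features tested, of which 21.3% were higher and 20.2% lower). In Neuron against DP 12 were higher and 4 were lower (median 0.34, against -0.04 over all features tested, of which 33.1% were higher and 34.2% lower), so that the count of higher genes in the first step and of lower genes in the second lay near those of all features. Among the 12, Cdc42 (edgeR adjusted p = 0.0317) lost this call without the second or the third DP library (0.0646 and 0.116). Cdc42 also lost it without the first or the third Neuron library (0.0695 and 0.0808). Ptk2b, another of the 12 (edgeR adjusted p = 0.0471), averaged only 0.327 CPM in Neuron. Prkca, a protein kinase C gene, was higher in both steps, at 16.1, 28.5 and 49.8 CPM in PP, DP and Neuron (edgeR adjusted p = 4.46e-05 and 1.17e-05). Cyfip2, a WAVE complex subunit, was higher in both, at 155.5, 244.5 and 420.5 CPM (edgeR adjusted p = 0.00378 and 0.000497). Ptk2, encoding focal adhesion kinase, averaged 218 CPM in Neuron and 114 CPM in DP, and Wasf1, encoding WAVE1, averaged 131 CPM in Neuron and 67.4 CPM in DP (edgeR adjusted p = 5.01e-08 and 3.28e-06). Wasf2, the WAVE2 gene, changed in the opposite direction, with 31.0 CPM in Neuron and 94.0 CPM in DP (3.03-fold lower, edgeR adjusted p = 4.73e-09). Wnk1, a kinase gene, averaged 243 CPM in Neuron and 457 CPM in DP (edgeR adjusted p = 1.37e-07). The small GTPase genes Cdc42 (log2 -0.29, adjusted p = 0.0247) and Rac1 (log2 -0.23, adjusted p = 0.0153) were called lower in DP than in PP, but lost the call on leaving out single libraries: Cdc42 without the first PP, the second DP or the third DP library (adjusted p = 0.103, 0.0627 and 0.0971), and Rac1 without the first PP, the second PP or the third DP library (0.0574, 0.0629 and 0.0702).

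Of 7 genes for the proteases that cut protocadherins at the membrane, 3 were higher and 0 were lower in DP than in PP (median log2 0.11, against -0.02 over all features tested), and 3 were higher and 1 was lower in Neuron than in DP (median 0.12, against -0.04). Over all features the shares were 21.3% higher and 20.2% lower in the first step and 33.1% and 34.2% in the second, and the counts of a list this short are a description only. Aph1b and Ncstn encode subunits of gamma-secretase. Aph1b averaged 105 CPM in Neuron and 32.6 CPM in DP (3.23-fold, edgeR adjusted p = 1.89e-08). Ncstn was highest in DP, at 111.9, 171 and 141 CPM in PP, DP and Neuron (edgeR adjusted p = 8.57e-05 and 0.00772). Psen2, another gene of this complex, averaged 10.1 CPM in Neuron and 4.84 CPM in DP (edgeR adjusted p = 1.75e-05). Adam10, encoding the sheddase, passed the threshold in neither step, at 122, 132 and 137 CPM.

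Non-clustered protocadherins, which are single genes outside the alpha, beta and gamma clusters, were called in both directions in the first step. Of 12 genes found, 3 were higher and 6 were lower in DP than in PP (median log2 -0.28, against -0.02 over all features tested, of which 21.3% were higher and 20.2% lower). In Neuron against DP 8 were higher and 0 were lower (median 0.51, against -0.04 over all features tested, of which 33.1% were higher and 34.2% lower). Pcdh18 bears on both counts: its lower call in DP (log2 -0.30, edgeR adjusted p = 0.0257) was lost without the second PP, the third PP, the first DP or the second DP library (adjusted p = 0.0726, 0.109, 0.0546 and 0.0837), and it was called lower in Neuron than in DP without the first Neuron library (adjusted p = 0.0399) or without the 3 libraries with run numbers apart (0.0202). Pcdh7 was 3.21-fold above PP in DP libraries (49.2 CPM in DP, 15.3 CPM in PP, edgeR adjusted p = 5.02e-07). Pcdh10 was 2.34-fold lower in DP than in PP (76.2 CPM in DP, 178 CPM in PP, edgeR adjusted p = 0.000117) and Pcdh8 was 1.93-fold lower (53.7 CPM in DP, 103.5 CPM in PP, edgeR adjusted p = 1.5e-05). Pcdh1 was 32.7-fold above DP in Neuron libraries (74.7 CPM in Neuron, 2.28 CPM in DP, edgeR adjusted p = 1.51e-09) and Pcdh9 was 7.74-fold higher (94.97 CPM in Neuron, 12.3 CPM in DP, edgeR adjusted p = 4.46e-10). Pcdh17 was 1.39-fold higher in Neuron than in DP (edgeR adjusted p = 0.000404), and Pcdh7 itself was 1.37-fold higher there (edgeR adjusted p = 0.00152). Pcdh20, at 0.773, 3.07 and 10.4 CPM in PP, DP and Neuron, was higher in both steps by amounts inside the range of the beta genes (4.02-fold and 3.38-fold, edgeR adjusted p = 0.000179 and 4.57e-05).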

How the data were processed

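Read counts per gene were deposited by the authors for a single-read and a paired-end run of each of 9 libraries; per the submitters' processing notes the build was mm9 and the tools included TopHat2 2.0.10, Bowtie2 2.2.1, featureCounts 1.4.4 and DESeq2 1.4.5, with no role given. The file headers give Ensembl release 67 gene identifiers. The log2 fold changes and adjusted p-values quoted as the authors' come from their deposited comparison tables. Column names tie each library to a fraction but not to a labelled replicate; within a fraction, libraries are called the first, the second and the third by the library numbers in the headers.

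Counts of both runs were added, annotated genes and the deposited unannotated transcripts were fitted together, and low features were removed with filterByExpr (about 0.232 CPM in at least 3 libraries), leaving 18627. edgeR 4.0.16 in R 4.3.3 was used with trimmed mean scaling and the quasi-likelihood test over all 9 libraries, with Benjamini-Hochberg adjustment over all features and a threshold of 0.05. The procedure was tested on simulated data. The p-values rest on the spread between these pools. The main fit held the fraction only, with no term for the sets of library numbers described below. Depth was 34337209 to 55935128 reads per library; low counts, as for Pcdhb12 and Pcdha3 in PP, limit the precision of their folds.

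Alternatives were DESeq2 size factors, the DESeq2 1.42.0 Wald test, no filter, only the 2 groups compared, each run alone, annotated genes alone and leaving out each library; leaving out 3 libraries together, a block and the comparison of the 2 steps were added after values were seen. The library numbers form 3 consecutive sets with 1 library of each fraction. Across 18627 features, deviations from the fraction means correlated positively between libraries of the same set (Pearson's r 0.13 to 0.345). Between sets r was -0.319 to 0.0106. Deviations within a fraction cancel out, so positive values within sets force lower values between sets, and this contrast is partly built in. No label explains these header numbers, and the sets were taken as pairs of libraries only for the block. Members, pathway lists and marker lists were chosen with earlier results of these data known. Genes named are the 3 beta genes, and up to 3 alpha and gamma rows, with the highest mean CPM, and in each cluster and list the 2 highest and 2 lowest log2 fold changes past the threshold in each step (lists at 10 CPM or more). Ctcf, Adam10, Ptk2b, Pcdh18, Pcdh20, the neighbouring rows, the Cajal-Retzius markers, Pcdhb1, Pcdhb4, Pcdhb5, Pcdhb10, Pcdhb13 and the genes named by their shares were named after their values were seen. Marker lists other than those described (endothelial cells, pericytes, microglia, oligodendrocyte precursors, meningeal fibroblasts, choroid plexus) summed to at most 64.6 CPM in any library. Values of some list genes that the rule names are not reported here.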

Additional observations from a re-analysis of the deposited data

How the results depend on the processing

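A fit with a replicate block, 1 block for each set of consecutive library numbers, was added after the data were seen; it called 20 beta genes, 2 alpha rows and 1 gamma row higher in each of the 2 steps and changed no call of a member or a named list gene. Counts of called alpha, beta and gamma rows were the same, within 1.5 times, under 270 of 270 alternative values, and no call of a member or list gene reversed. Much of this agreement comes from counts of 0 lower rows and from the 2 alpha rows and 1 gamma row. Of the members' log2 fold changes, 1034 alternative values kept their direction and side of the threshold and 1 did not, Pcdhb14 in DP against PP with the single-read runs alone (log2 0.69, adjusted p = 0.0851). Scaling by DESeq2 size factors moved the median of all features by at most 0.03. Among the list genes 34 alternative values lost a call and 2 gained one, in genes with small changes; the cause was not tested. The alpha and gamma rows merge many isoforms, and single beta genes with few PP reads have wide intervals.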
